A study of Mus musculus with 20 samples.

Results

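Transcripts of 10 cytokine receptor genes were followed over 5 groups of mouse CD4 T cells. The genes were Il7r, Il4ra, Il6ra, Il6st, Il21r, Il27ra, Il18r1, Il10ra, Ifngr1 and Ifngr2. They were taken by name, without a threshold on any value, from a deposited table of read counts for 22068 gene symbols. The choice was made with earlier results of these data known, so their counts beside all genes are no independent test. All 10 passed the filter on low counts, which left 13309 genes to be tested.

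Cells were sorted from lymph nodes and spleen of C57BL/6 animals, 8 to 12 weeks old, and polyadenylated RNA was sequenced from 20 libraries, 4 per group. The series' text asks how naive CD4 T cells of high and low CD5 differ at homeostasis and after loss of contact with self-peptide, with regulatory T cells beside them. CD5 sits on the T cell surface, dampens signals of the antigen receptor and marks how strongly a cell sees self-peptide. The 4 libraries of a group are called biological replicates there, and the number of mice behind each is not given in the sources used here. Regulatory T cells (Treg) were CD4 T cells positive for a GFP reporter of Foxp3 and were lysed directly after the sort. Naive cells were negative for that reporter and negative or low for CD44. The 15% of them with the highest CD5 are called CD5hi and the 15% with the lowest CD5lo. Rested CD5hi and rested CD5lo cells were cultured for 22 hours with interleukin 7 at 10 ng per mL. Fresh CD5hi and fresh CD5lo cells were lysed without culture. All sorts excluded cells with CD69, an activation marker, or with markers of B cells, NK cells, granulocytes and other myeloid cells. Rested cells differed from fresh cells in culture, added interleukin 7, time and loss of contact with other cells, and these cannot be told apart.

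Total counts ran from 38211406 to 64477566 per library, and a receptor gene had 792 to 63107 counts in a library. Of the counts from 1 to 10 in a library, 62.3% to 66.2% were even numbers. Whether fragments were counted more than once was not tested, and the counts were used as deposited. The 7 naive CD4 T cell markers summed to between 2930 and 3210 CPM in Treg and between 4940 and 6240 CPM in naive cells (CPM, counts scaled to the TMM-adjusted library total). The 6 Treg markers, Foxp3 among them, summed to between 2940 and 3240 CPM in Treg and to at most 317 CPM in rested and 84.9 CPM in fresh naive cells. The labels describe pooled male and female mice, but every library carried reads of only one kind. All 8 fresh libraries held Y-linked reads. Among Treg and rested libraries only those numbered 3 held them, and those numbered 1, 2 and 4 held Xist reads. Each comparison was therefore also made within the libraries with Y-linked reads. There the rested and Treg groups hold 1 library each, which is assumed to vary like the fresh ones, so those p-values hold no spread within the rested or Treg group. In these bulk libraries, fewer cells with a transcript and less of it per cell cannot be told apart.

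Cytokine receptors of this kind work as pairs or larger assemblies of chains, often with one chain that binds the cytokine and one that is shared between cytokines. The chains carry no kinase of their own: bound JAK kinases phosphorylate STAT factors, which move to the nucleus, while the interleukin 18 receptor signals through MyD88 instead. Naive T cells depend on interleukin 7 for survival, and low interleukin 7 receptor is a known trait of Treg.

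**Figure D1:**
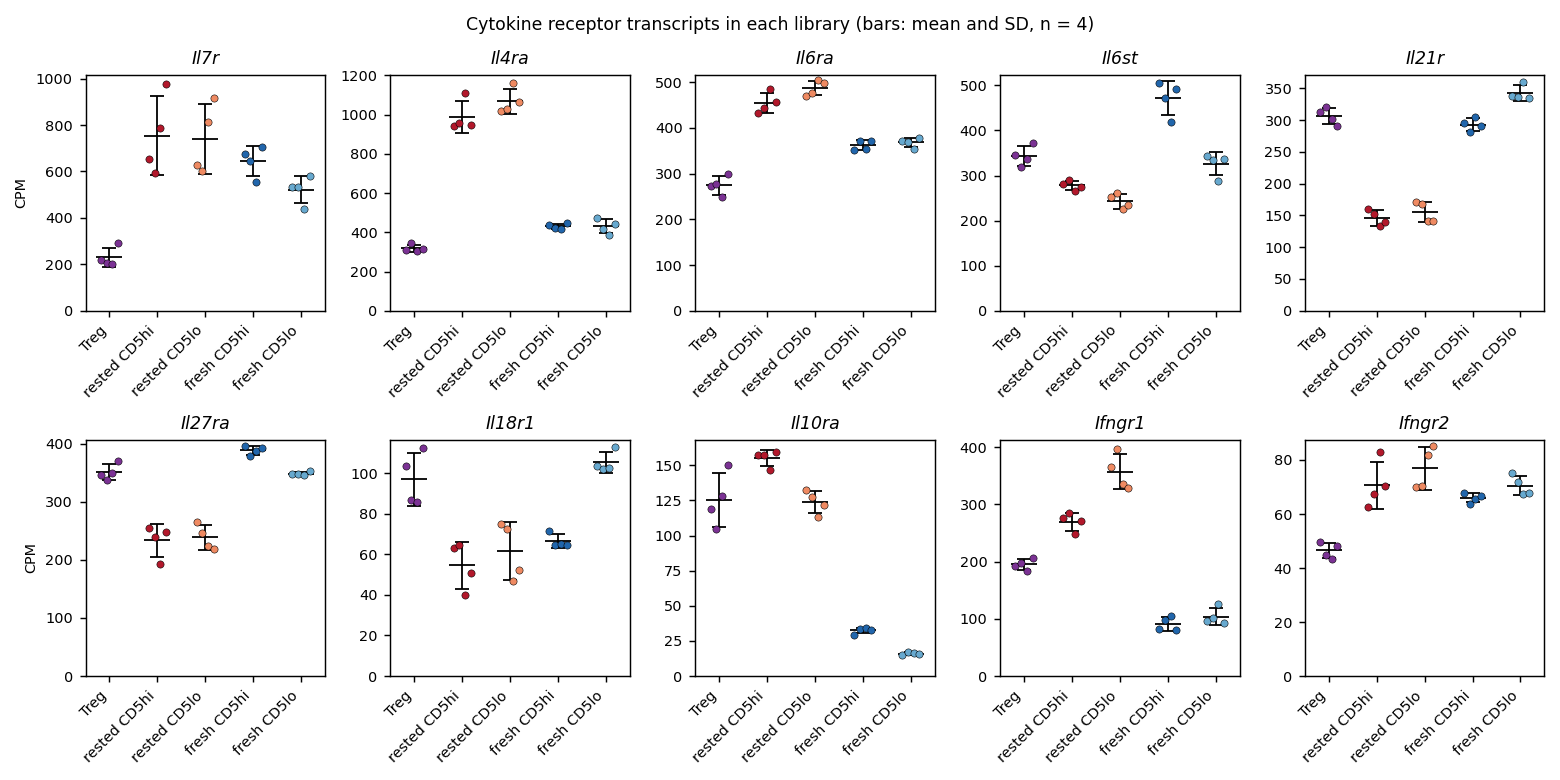
Level of each receptor transcript in CPM (y axis, from 0) in the 4 libraries of each group (x axis); points are libraries, horizontal marks means and bars SD. Il10ra and Ifngr1 sat low in both fresh groups, with at most 34.2 and 126 CPM, and Il7r sat lowest in Treg, with at most 291 CPM.

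Il7r encodes the alpha chain of the interleukin 7 receptor. It had 218, 207, 202 and 291 CPM in the 4 Treg libraries. It had 655, 594, 785 and 978 CPM in rested CD5hi cells and 629, 603, 813 and 915 CPM in rested CD5lo cells. It had 677, 643, 555 and 704 CPM in fresh CD5hi cells and 532, 533, 439.6 and 579 CPM in fresh CD5lo cells. Every Treg library lay below every naive library. Within both rested groups, replicates 3 and 4 lay above replicates 1 and 2. Means were 229.5 ± 41.4 CPM in Treg, 753 ± 170.0 in rested CD5hi, 740.0 ± 149 in rested CD5lo, 645 ± 65.0 in fresh CD5hi and 521 ± 58.3 in fresh CD5lo cells (SD, n = 4 each). In this order, none of the neighbours among the naive groups passed in the main fit of all 5 groups, and their ranges overlapped. Fresh CD5hi cells were above fresh CD5lo cells in all 4 same-numbered pairs. With the replicate number as a block within each state that difference passed, at 0.31 on the log2 scale (edgeR adjusted p = 0.0109). Without a block, the difference also passed when the compared groups were fitted alone, at 0.31 (edgeR adjusted p = 0.017). Treg lay apart from fresh CD5lo cells, the next group up.

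Il7r fell in Treg by 1.18 ± 0.15 on the log2 scale (SE) against fresh CD5lo cells, with an edgeR adjusted p of 8.55e-07, and by 1.49 ± 0.15 against fresh CD5hi cells, with an edgeR adjusted p of 3.56e-08. On resting, Il7r rose in CD5lo cells by a log2 fold change of 0.51 ± 0.15 (edgeR adjusted p = 0.00743). In CD5hi cells the log2 fold change was 0.22 ± 0.15 (edgeR adjusted p = 0.222). The rise in CD5lo cells depended on which rested libraries were taken, an alternative chosen after the data were seen. It was 0.24 with rested replicates 1 and 2 alone (edgeR adjusted p = 0.118) and 0.66 within the libraries with Y-linked reads, where 1 library is rested (edgeR adjusted p = 0.000557). In CD5hi cells, rested replicates 1 and 2 alone gave -0.06 (edgeR adjusted p = 0.728), and replicates 3 and 4 alone gave 0.46 (edgeR adjusted p = 0.00633).

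The regions just before the transcription starts were read for 8 of the 10 genes, which have an entry among the RefSeq promoters used here (build GRCm38.p6). The 8 genes have 10 entries, with 250 bases before each start. Shown are those that hold a match to any of 4 motifs, because STAT5 carries the interleukin 7 signal and FOXO and RUNX factors are known to act on Il7r in mouse T cells. Capitals mark the matches.
Il7r, chr15:9529877-9530126, minus strand: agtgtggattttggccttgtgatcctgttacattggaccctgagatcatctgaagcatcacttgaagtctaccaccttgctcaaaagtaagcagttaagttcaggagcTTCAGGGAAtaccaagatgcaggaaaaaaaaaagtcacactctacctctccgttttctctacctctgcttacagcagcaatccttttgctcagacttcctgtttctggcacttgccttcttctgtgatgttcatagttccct
Il21r, chr7:125603179-125603428, plus strand: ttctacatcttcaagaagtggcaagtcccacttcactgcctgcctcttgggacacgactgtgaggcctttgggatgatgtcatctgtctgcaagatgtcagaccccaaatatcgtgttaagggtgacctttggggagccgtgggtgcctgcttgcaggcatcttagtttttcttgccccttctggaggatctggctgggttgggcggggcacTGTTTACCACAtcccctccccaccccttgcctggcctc
Il18r1, chr1:40465756-40466005, plus strand: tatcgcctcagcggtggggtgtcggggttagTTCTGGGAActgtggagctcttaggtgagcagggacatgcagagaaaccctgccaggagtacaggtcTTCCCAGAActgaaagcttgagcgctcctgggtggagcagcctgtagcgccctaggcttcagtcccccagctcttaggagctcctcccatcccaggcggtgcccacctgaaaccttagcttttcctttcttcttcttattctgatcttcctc

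The STAT motif TTCNNNGAA was searched on both strands and is held by 7.02% of the 32851 mouse promoter windows of the same length. The Il7r window held 1 match, at bases -142 to -134 from the start. The window at 1 of the 3 annotated Il18r1 starts held 2 matches, at -219 to -211 and at -152 to -144. The FOXO motif GTAAACA is held by 3.17% of windows, and the Il21r window held it on the minus strand at -38 to -32. It overlapped there with the RUNX motif TGTGGT at -33 to -28, a motif held by 14% of windows. The ETS motif CCGGAAG, held by 6.91% of windows, was in none of them. Windows of Il6ra, Il4ra, Ifngr1, Il6st and Ifngr2, and the other 2 of Il18r1, held none of the 4 motifs. A match describes the letters alone.

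Levels of different genes were compared as CPM per kilobase of exon, with exon lengths from the mouse GENCODE annotation. Per kilobase, Il7r ranked first of the 10 in all 4 naive groups, with 213 ± 48.0 in rested CD5hi, 209 ± 42.2 in rested CD5lo, 182 ± 18.4 in fresh CD5hi and 147 ± 16.5 in fresh CD5lo cells (SD, n = 4 each). In Treg its rank was 4, at 64.8 ± 11.7 CPM per kilobase, and Il27ra ranked first, at 132 ± 5.18. Il10ra ranked last in both fresh groups, with 9.27 ± 0.591 CPM per kilobase in CD5hi and 4.57 ± 0.249 in CD5lo cells. In rested CD5lo cells the lead of Il7r over Il4ra, 209 against 203 CPM per kilobase, lay within the SD of either. In rested CD5hi cells, 213 against 188 CPM per kilobase, it lay within the SD of Il7r but not within that of Il4ra, at 15.6. In fresh CD5lo cells Il21r came next, at 135 ± 4.73 CPM per kilobase. The lead of Il7r over Il21r there lay within the SD of Il7r but not within that of Il21r.

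**Figure D2:**
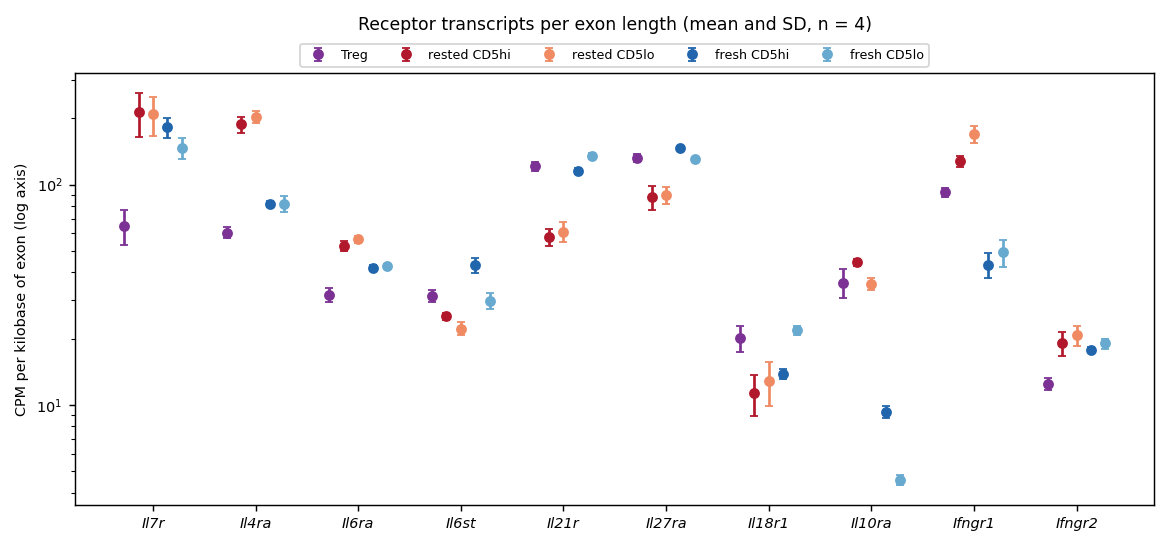
Mean level of each receptor transcript in CPM per kilobase of exon (y axis, log scale) with SD over 4 libraries, coloured by group (x axis, genes). Il7r is highest in the 4 naive groups, between 147 and 213, and Il10ra spans the widest range, from 4.57 in fresh CD5lo to 44.4 in rested CD5hi cells.

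The other chains whose cytokines share the common gamma chain, Il4ra and Il21r, moved in opposite directions on resting. Il4ra binds interleukin 4 and, with Il13ra1, interleukin 13. It had 941, 955, 1112 and 949 CPM in rested CD5hi cells, against 436, 422, 415 and 447 CPM in fresh CD5hi cells. It had 1020.4, 1028, 1161 and 1063 CPM in rested CD5lo cells, against 474, 419, 389 and 440.2 CPM in fresh CD5lo cells. Every rested library lay above every fresh one. The log2 fold change was 1.20 ± 0.067 in CD5hi cells (edgeR adjusted p = 3.35e-12) and 1.31 ± 0.067 in CD5lo cells (edgeR adjusted p = 8.55e-13).

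Il21r encodes the specific chain of the interleukin 21 receptor, and no protein-coding gene lies between it and Il4ra on chromosome 7 in the RefSeq annotation used here. It had 161, 153, 133 and 140.1 CPM in rested CD5hi cells, against 295, 282, 305 and 290.4 CPM in fresh CD5hi cells. It had 172, 167, 142 and 141 CPM in rested CD5lo cells, against 339, 336, 361 and 335 CPM in fresh CD5lo cells. The rested and fresh ranges were far apart, with the rested libraries lower. Il21r fell by 1.0 ± 0.066 on the log2 scale in CD5hi cells (edgeR adjusted p = 5.13e-11) and by 1.14 ± 0.066 in CD5lo cells (edgeR adjusted p = 6.02e-12). Across the 20 libraries the log2 CPM of the neighbours had a Pearson correlation of -0.94, which describes libraries that share groups and has no test.

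The receptors of the gp130 family were divided. Il6ra, which binds interleukin 6, had 434 to 485 CPM in rested CD5hi cells, against 351 to 372 CPM in fresh CD5hi cells. It had 470.2 to 504 CPM in rested CD5lo cells, against 354 to 378 CPM in fresh CD5lo cells. The ranges did not overlap, and the log2 fold changes of 0.33 ± 0.051 in CD5hi and 0.40 ± 0.051 in CD5lo cells had edgeR adjusted p of 1.51e-05 and 1.04e-06. Il6st encodes gp130, the chain that signals for interleukin 6 and interleukin 27. It had 281, 290.2, 265 and 276 CPM in rested CD5hi cells, against 506, 471, 419.7 and 491 CPM in fresh CD5hi cells. It had 253, 260.4, 225 and 234 CPM in rested CD5lo cells, against 344, 335, 288 and 337 CPM in fresh CD5lo cells. All rested libraries lay below the fresh libraries of their CD5 group. Il6st fell by 0.76 ± 0.067 on the log2 scale in CD5hi cells (edgeR adjusted p = 4.82e-09) and by 0.42 ± 0.067 in CD5lo cells (edgeR adjusted p = 1.86e-05).

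Il27ra, the interleukin 27 chain that pairs with gp130, also fell. It had 192 to 255 CPM in rested CD5hi cells, against 378 to 396 CPM in fresh CD5hi cells, and 218 to 265 CPM in rested CD5lo cells, against 345 to 352 CPM in fresh CD5lo cells. The falls were 0.74 ± 0.070 and 0.54 ± 0.069 on the log2 scale, with edgeR adjusted p of 1.63e-08 in CD5hi and 1.23e-06 in CD5lo cells. The ranges did not overlap. The SD was 28.2 CPM in rested against 7.63 CPM in fresh CD5hi cells, and 21.7 CPM in rested against 2.99 CPM in fresh CD5lo cells.

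On resting, the largest rises among the 10 were in Il10ra and Ifngr1. Il10ra encodes the chain that binds interleukin 10, an inhibitory cytokine. It had 157, 157, 147 and 159 CPM in rested CD5hi cells, against 29.5, 33.3, 34.2 and 32.6 CPM in fresh CD5hi cells. It had 132, 127, 114 and 122 CPM in rested CD5lo cells, against 15.1, 17.0, 16.4 and 15.4 CPM in fresh CD5lo cells. Every rested library lay at more than 100 CPM and no fresh library reached 35 CPM. The level was 4.79-fold higher in CD5hi cells, a log2 fold change of 2.26 ± 0.084 (edgeR adjusted p = 3.92e-15), and 7.74-fold higher in CD5lo cells, a log2 fold change of 2.95 ± 0.087 (edgeR adjusted p = 1.05e-16).

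Ifngr1 encodes the chain that binds interferon gamma. It had 276, 286, 249 and 270.3 CPM in rested CD5hi cells, against 83.0, 97.8, 106 and 79.7 CPM in fresh CD5hi cells. It had 366, 397, 336 and 329.6 CPM in rested CD5lo cells, against 96.7, 102, 126 and 92.1 CPM in fresh CD5lo cells. The groups were far apart, and the log2 fold changes were 1.56 ± 0.093 in CD5hi cells (edgeR adjusted p = 1.08e-11) and 1.78 ± 0.094 in CD5lo cells (edgeR adjusted p = 1.31e-12). Its partner Ifngr2, the chain that brings JAK2 to the interferon gamma receptor, had 62.5 to 82.8 CPM in rested CD5hi cells, against 63.8 to 67.9 CPM in fresh CD5hi cells. It had 69.9 to 85.4 CPM in rested CD5lo cells, against 67.3 to 75.1 CPM in fresh CD5lo cells. These ranges overlapped. The log2 fold changes of Ifngr2 were 0.10 ± 0.078 in CD5hi cells (edgeR adjusted p = 0.301) and 0.12 ± 0.078 in CD5lo cells (edgeR adjusted p = 0.187). Within the libraries with Y-linked reads, where each rested group is replicate 3 alone, they were 0.34 and 0.23. In rested CD5hi cells replicate 3 was the highest library, at 82.8 CPM. In a split chosen after the data were seen, rested replicates 1 and 2 alone gave -0.04 in CD5hi and -0.02 in CD5lo cells. Rested replicates 3 and 4 alone gave 0.22 and 0.26.

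Il18r1 encodes the binding chain of the interleukin 18 receptor. It had 62.9, 64.4, 39.9 and 50.9 CPM in rested CD5hi cells, against 71.4, 64.5, 65.1 and 64.5 CPM in fresh CD5hi cells. It had 74.8, 72.6, 47.0 and 52.3 CPM in rested CD5lo cells, against 103, 102, 103 and 113 CPM in fresh CD5lo cells. Replicates 3 and 4 were the low libraries in both rested groups. Il18r1 fell in CD5lo cells by 0.77 ± 0.14 on the log2 scale (edgeR adjusted p = 1e-04), without overlap. In CD5hi cells the log2 fold change was -0.28 ± 0.14 (edgeR adjusted p = 0.0977). That value depended on the rested libraries taken. A split by replicate, chosen after the data were seen, follows the low libraries and gives no independent test. With rested replicates 1 and 2 alone the log2 fold change was -0.07 (edgeR adjusted p = 0.528). With replicates 3 and 4 alone it was -0.54 (edgeR adjusted p = 0.000296). It passed without rested CD5hi replicate 1, at -0.36 (edgeR adjusted p = 0.0482), or replicate 2, at -0.38 (edgeR adjusted p = 0.0371). Within the libraries with Y-linked reads, where the single rested library is replicate 3, the lowest of its group, it was -0.72 (edgeR adjusted p = 7.55e-06).

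By count, 7 of the 10 genes passed the test on resting in CD5hi cells, 4 higher and 3 lower, where 52.4% of all tested genes did, 26.2% higher and 26.2% lower. In CD5lo cells 9 passed, 5 higher and 4 lower, where 54.3% of all genes did, 26.9% higher and 27.3% lower. The median log2 fold change of the 10 was 0.16 in CD5hi and 0.26 in CD5lo cells, beside medians over all tested genes of 0.00 and -0.01. Within the libraries with Y-linked reads, where each rested group is replicate 3 alone, all 7 and all 9 had the same direction. There Il10ra was at 2.19 in CD5hi and 2.84 in CD5lo cells, Ifngr1 at 1.46 and 1.71, Il4ra at 1.38 and 1.45, and Il6ra at 0.44 and 0.47. Il21r was at -1.13 in CD5hi and -1.26 in CD5lo cells, Il27ra at -1.0 and -0.62, and Il6st at -0.82 and -0.52. With 1 rested library, a difference between kinds of library and one between that library and others of its group cannot be told apart. The 6 macrophage and monocyte markers summed to 3.32 to 6.07 CPM in rested and 11.7 to 16.3 CPM in fresh naive libraries. These markers move with resting, and their part in the result was not tested.

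**Figure D3:**
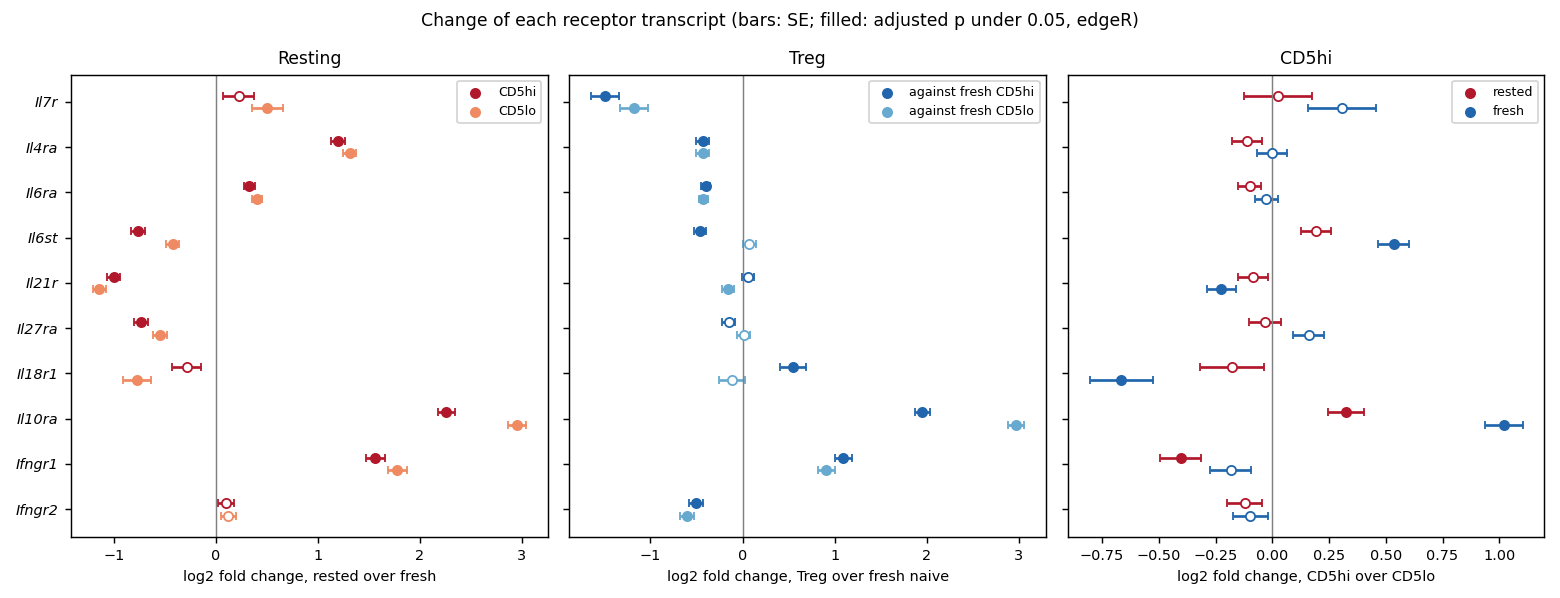
Log2 fold change (x axes) of each receptor gene (y axis) on resting, in Treg against fresh naive cells, and in CD5hi against CD5lo cells; bars are SE, and filled points have an edgeR adjusted p under 0.05. Il10ra lies farthest right in the first 2 panels, at 2.26 and 2.95 on resting and at 1.95 and 2.97 in Treg.

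Fresh CD5hi cells had 4 of the 10 genes past the threshold, 2 higher and 2 lower, where 11.5% of all tested genes passed, 6.86% higher and 4.59% lower. The median log2 fold change was -0.01 over the 10 and -0.01 over all genes. Il10ra was 2.03-fold higher, with 29.5 to 34.2 CPM in fresh CD5hi cells against 15.1 to 17.0 CPM in fresh CD5lo cells, a log2 fold change of 1.02 ± 0.083 (edgeR adjusted p = 9.45e-09). Il6st was higher by 0.53 ± 0.067 on the log2 scale (edgeR adjusted p = 4.52e-06). Il18r1 was lower, with no fresh CD5hi library above 71.4 CPM and no fresh CD5lo library below 102 CPM, a log2 fold change of -0.66 ± 0.14 (edgeR adjusted p = 0.00219). Il21r was lower as well, with a log2 fold change of -0.22 ± 0.065 (edgeR adjusted p = 0.0251).

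The difference in Il21r was the least firm. Its edgeR adjusted p was 0.0659 with plain library totals and 0.0534 with upper-quartile scaling. It was 0.0525, 0.0752 or 0.0632 without fresh CD5hi replicate 1, 2 or 4, and 0.0749 without fresh CD5lo replicate 3. The replicate numbers were taken to pair the CD5hi with the CD5lo libraries of one state, because same-numbered libraries deviated together. The labels do not state such a pairing. With the replicate number as a block within each state 7 of the 10 genes passed. The block added Il7r at 0.31 (edgeR adjusted p = 0.0109), Il27ra at 0.16 (edgeR adjusted p = 0.029) and Ifngr1 at -0.18 (edgeR adjusted p = 0.00558). In the main fit, without the block, these had edgeR adjusted p of 0.249, 0.17 and 0.264. With the compared groups fitted alone, Il7r and Il27ra passed without a block (edgeR adjusted p = 0.017 and 0.00151). Il4ra was at 430.4 ± 14.4 CPM in fresh CD5hi cells and 430.5 ± 36.1 CPM in fresh CD5lo cells (SD, n = 4 each).

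After resting, 2 of the 10 genes passed the threshold between CD5hi and CD5lo cells, 1 higher and 1 lower, where 8.2% of all tested genes did, 4.74% higher and 3.46% lower. Their median log2 fold change was -0.09, beside 0.00 over all genes. Il10ra was higher, with 147 to 159 CPM in rested CD5hi cells against 114 to 132 CPM in rested CD5lo cells, a log2 fold change of 0.33 ± 0.079 (edgeR adjusted p = 0.0107). Ifngr1 was lower, with 249 to 286 CPM in rested CD5hi cells against 329.6 to 397 CPM in rested CD5lo cells, a log2 fold change of -0.40 ± 0.091 (edgeR adjusted p = 0.0058). Neither pair of ranges overlapped. With fewer libraries the sizes were much the same and the calls were not. Within the libraries with Y-linked reads, 1 per group, Il10ra was at 0.37 (edgeR adjusted p = 0.0874) and Ifngr1 at -0.44 (edgeR adjusted p = 0.362). In the libraries with Xist reads Il10ra was at 0.31 (edgeR adjusted p = 0.131) and Ifngr1 at -0.39 (edgeR adjusted p = 0.00561). Il6st was at 0.19 ± 0.067 (edgeR adjusted p = 0.0859), and passed with the replicate block within each state (edgeR adjusted p = 0.00414).

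On the log2 scale the distance between CD5hi and CD5lo cells shrank on resting for Il10ra. In CPM that distance grew. Means were 32.4 in CD5hi and 16.0 in CD5lo fresh cells, and 155 in CD5hi and 124 in CD5lo rested cells. The log2 difference of Il10ra was lower by 0.69 ± 0.11 after resting, an interaction of -0.69 (edgeR adjusted p = 0.00418). Il10ra was the only one of the 10 to pass, where 0.451% of all tested genes did, 0.113% higher and 0.338% lower. It missed the threshold within the libraries with Y-linked reads, at -0.65 (edgeR adjusted p = 0.0763). With the replicate block within each state, Il6st at -0.34 (edgeR adjusted p = 0.00455) and Il18r1 at 0.49 (edgeR adjusted p = 0.0159) passed as well. Without the block their edgeR adjusted p were 0.172 and 0.615. The pair of CD8 T cell markers, Cd8a and Cd8b1, summed to 6.21 to 8.09 CPM in rested CD5hi, 18.5 to 22.3 CPM in rested CD5lo, 7.98 to 8.92 CPM in fresh CD5hi and 28.9 to 35 CPM in fresh CD5lo cells. Most of this was Cd8b1, which averaged 6.57, 19.9, 7.71 and 31.1 CPM in these groups, in that order. Cd8a averaged 0.426, 0.715, 0.524 and 0.949 CPM. The sum moves with CD5, and its part in these differences was not tested.

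Treg had less Il7r, Il4ra, Il6ra and Ifngr2 than every naive group, and more Il10ra and Ifngr1 than fresh naive cells. Il4ra had 308, 346, 305 and 315 CPM in Treg, against 415 to 447 CPM in fresh CD5hi and 389 to 474 CPM in fresh CD5lo cells, and fell by 0.43 ± 0.066 on the log2 scale against each. The edgeR adjusted p were 9.28e-06 and 8.07e-06. Il6ra had 272, 277, 249 and 299 CPM in Treg, below the lowest fresh library at 351 CPM. It fell by 0.40 ± 0.051 against fresh CD5hi and by 0.43 ± 0.051 against fresh CD5lo cells, with edgeR adjusted p of 8.64e-07 and 3.01e-07.

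Ifngr2 had 49.6, 45, 43.3 and 48.2 CPM in Treg and at least 62.5 CPM in every naive library. It fell by 0.50 ± 0.079 against fresh CD5hi cells and by 0.60 ± 0.079 against fresh CD5lo cells, with edgeR adjusted p of 1.27e-05 and 1.08e-06. Ifngr1 had 193, 198, 184 and 206 CPM in Treg. All were above the highest fresh library, at 126 CPM, and below the lowest rested library, at 249 CPM. Its log2 fold change was 1.09 ± 0.092 against fresh CD5hi cells (edgeR adjusted p = 1.52e-09) and 0.91 ± 0.092 against fresh CD5lo cells (edgeR adjusted p = 2.29e-08). So the chains of the interferon gamma receptor lay on opposite sides of fresh naive cells in Treg.

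Il10ra had 119, 105, 128 and 150.2 CPM in Treg. It was 3.87-fold the level of fresh CD5hi cells and 7.84-fold that of fresh CD5lo cells, with log2 fold changes of 1.95 ± 0.083 and 2.97 ± 0.087 and edgeR adjusted p of 1.36e-14 and 1.89e-17. Against rested cells the Treg range overlapped with both groups. The log2 fold change was -0.31 ± 0.079 against rested CD5hi cells (edgeR adjusted p = 0.00186), and it missed the threshold with plain library totals, at -0.16 (edgeR adjusted p = 0.0967), and within the libraries with Y-linked reads, at -0.20 (edgeR adjusted p = 0.119). Against rested CD5lo cells it was 0.02 ± 0.079 (edgeR adjusted p = 0.843).

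The remaining 4 genes in Treg stood near one or the other fresh group. Il6st had 345, 319.5, 336 and 372 CPM in Treg, close to the 288 to 344 CPM of fresh CD5lo cells and below the 419.7 to 506 CPM of fresh CD5hi cells, against which it fell by 0.46 ± 0.067 (edgeR adjusted p = 4.77e-06). Il18r1 had 103, 86.5, 85.7 and 112 CPM in Treg, overlapping with fresh CD5lo cells and above fresh CD5hi cells, with a log2 fold change of 0.55 ± 0.14 against these (edgeR adjusted p = 0.00231). Within the libraries with Y-linked reads that value was 0.38 (edgeR adjusted p = 0.000806), and with a term for these libraries it was 0.22 (edgeR adjusted p = 0.127). Against fresh CD5lo cells Il18r1 was at -0.12 (edgeR adjusted p = 0.489), at -0.28 within these libraries (edgeR adjusted p = 0.00855) and at -0.44 with the term (edgeR adjusted p = 0.00425). Il21r, at 291 to 321 CPM in Treg, was -0.16 ± 0.065 against fresh CD5lo cells (edgeR adjusted p = 0.0394). That call was lost under RLE, upper-quartile and plain-total scaling, under both other filters and with DESeq2, with the highest edgeR adjusted p, 0.521, under plain totals. It was also lost when Treg replicate 1, 3 or 4 or any single fresh CD5lo replicate was left out, with edgeR adjusted p of 0.0667 to 0.164. Il27ra, at 338 to 370.2 CPM in Treg, was at -0.15 against fresh CD5hi cells (edgeR adjusted p = 0.076) and at 0.01 against fresh CD5lo cells (edgeR adjusted p = 0.897). The value against fresh CD5hi cells passed in 3 alternatives, at -0.14 within the libraries with Y-linked reads (edgeR adjusted p = 0.0375), at -0.27 with the term for them (edgeR adjusted p = 0.00406) and at -0.14 with the compared groups alone (edgeR adjusted p = 0.00994).

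By count, 8 of the 10 genes passed in Treg against fresh CD5hi cells, 3 higher and 5 lower, where 54.2% of all tested genes did, 27.5% higher and 26.6% lower. Against fresh CD5lo cells 7 passed, 2 higher and 5 lower, where 58.5% of all genes did, 29.2% higher and 29.4% lower. Against rested CD5hi cells all 10 passed, 4 higher and 6 lower, where 66.2% of all genes did, 33.5% higher and 32.8% lower. Against rested CD5lo cells 9 passed, 4 higher and 5 lower, where 67.9% of all genes did, 34.1% higher and 33.7% lower. Within the libraries with Y-linked reads 8 of the 10 calls against rested CD5hi cells were kept, without Il10ra and without Ifngr1, at -0.44 (edgeR adjusted p = 0.0757). Against fresh CD5hi cells these libraries gave -1.66 for Il7r, -0.48 for Il4ra, -0.53 for Il6ra, -0.59 for Ifngr2, 1.02 for Ifngr1 and 2.0 for Il10ra. Against fresh CD5lo cells they gave -1.35 for Il7r, -0.48 for Il4ra, -0.55 for Il6ra, -0.69 for Ifngr2, 0.84 for Ifngr1 and 3.02 for Il10ra. Against both rested groups the higher genes were Il6st, Il21r, Il27ra and Il18r1, whose means were also lower in rested than in fresh cells. These comparisons share the rested libraries with those on resting. The median log2 fold change of the 10 in Treg was -0.27 against fresh CD5hi and -0.14 against fresh CD5lo cells, beside -0.02 and -0.03 over all genes. The 8 effector and memory markers summed to 358 to 385 CPM in Treg and to at most 94.9 CPM in naive libraries. The 5 B cell markers summed to 23 to 25 CPM in Treg and 3.33 to 9.77 CPM in naive libraries, with Cd79b the highest. The part of either list in these differences was not tested.

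Receptor chains that work together overlapped between groups in their proportions for some pairs and not for others. Ratios of read counts were taken in each library against a partner chain, with no test, and compare groups for one pair, not levels of different genes. Ifngr1 over Ifngr2 was 3.89 to 4.4 in Treg, 3.0 to 4.42 in rested CD5hi, 3.86 to 5.64 in rested CD5lo, 1.20 to 1.61 in fresh CD5hi and 1.29 to 1.87 in fresh CD5lo cells. Treg and rested libraries thus lay above all fresh ones. Il6ra over Il6st was 0.740 to 0.867 in Treg, 1.53 to 1.83 in rested CD5hi, 1.83 to 2.24 in rested CD5lo, 0.693 to 0.843 in fresh CD5hi and 1.08 to 1.23 in fresh CD5lo cells. Treg overlapped here with fresh CD5hi cells alone. Il27ra over Il6st averaged 1.02 ± 0.0308 in Treg (SD, n = 4), and it was 0.725 to 0.908 in rested CD5hi, 0.932 to 1.05 in rested CD5lo, 0.782 to 0.924 in fresh CD5hi and 1.01 to 1.2 in fresh CD5lo cells. The rested and fresh ranges of this pair overlapped in both CD5 groups.

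Il10ra over Il10rb, the shared second chain of the interleukin 10 receptor, was 1.16 to 1.76 in Treg, 3.98 to 4.35 in rested CD5hi, 3.08 to 3.39 in rested CD5lo, 0.742 to 0.925 in fresh CD5hi and 0.402 to 0.443 in fresh CD5lo cells. No groups overlapped. Il10rb itself had 88.4 ± 2.39 CPM in Treg and between 37.4 and 38.4 CPM on average in the naive groups. Il7r over Il2rg, the common gamma chain, was 0.317 to 0.484 in Treg, 1.37 to 2.25 in rested CD5hi, 1.29 to 2.18 in rested CD5lo, 0.891 to 1.13 in fresh CD5hi and 0.643 to 0.862 in fresh CD5lo cells. Il18rap, the second chain of the interleukin 18 receptor, averaged 8.81 ± 1.60 CPM in Treg and between 0.703 and 1.38 CPM in the naive groups, far below Il18r1 in reads.

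**Figure D4:**
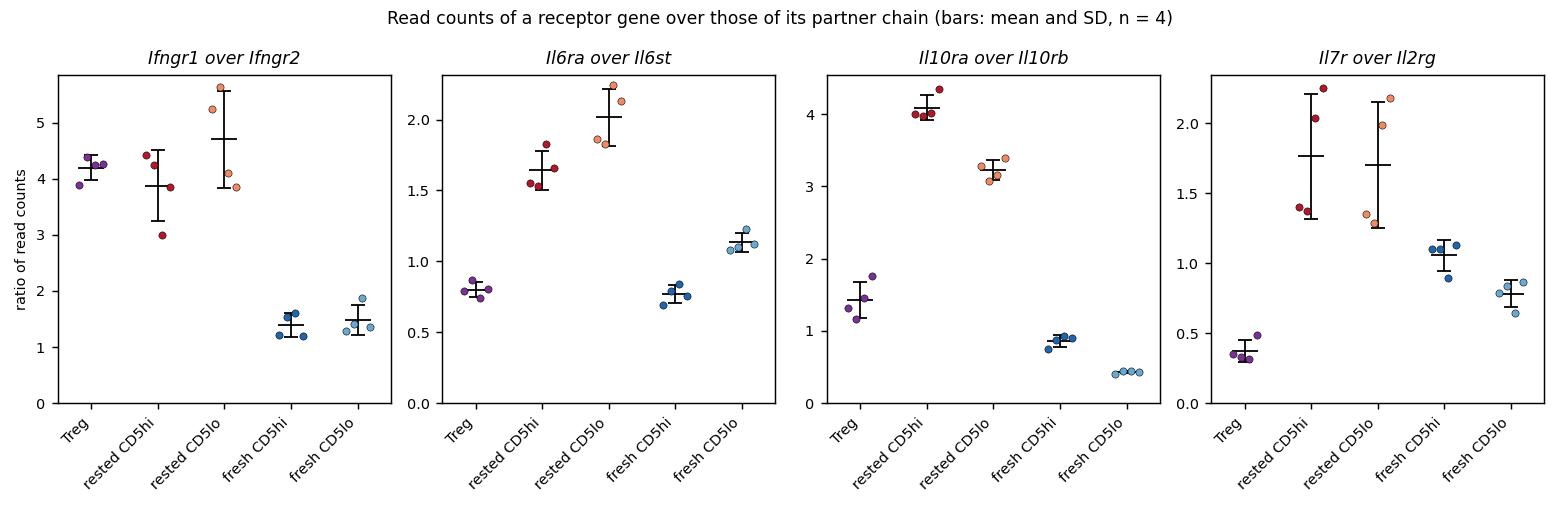
Read counts of a receptor gene divided by those of its partner chain (y axes, from 0) in each library, by group (x axis); horizontal marks are means and bars SD. Il10ra over Il10rb separates all 5 groups, from 0.402 to 0.443 in fresh CD5lo up to 3.98 to 4.35 in rested CD5hi cells.

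The gene lists that follow were also chosen with earlier results of these data known, and their counts are descriptions. The list called partner receptor chains held 31 genes, of which 29 were tested. It includes Ebi3, a cytokine subunit and not a receptor chain, and some chains that pair with none of the 10. On resting, 6 rose and 10 fell in CD5hi cells, and 7 rose and 10 fell in CD5lo cells. The median log2 fold changes were -0.16 and -0.11, beside 0.00 and -0.01 over all genes, of which 52.4% and 54.3% passed. Il2ra, the high-affinity chain of the interleukin 2 receptor, averaged 88.6 ± 8.89 CPM in rested CD5hi cells against 1.64 ± 0.308 CPM in fresh CD5hi cells, and 108 ± 4.62 CPM in rested CD5lo cells against 2.93 ± 0.463 CPM in fresh CD5lo cells (SD, n = 4 each). Its edgeR adjusted p were 1.42e-19 and 2.83e-19. Il12rb1, a chain of the interleukin 12 and interleukin 23 receptors, fell by 2.95 ± 0.28 on the log2 scale in CD5hi and fell by 2.96 ± 0.29 in CD5lo cells, with edgeR adjusted p of 2.09e-08 and 2.28e-08. In fresh cells, Il2rb, the chain shared by the interleukin 2 and interleukin 15 receptors, averaged 33.8 ± 1.60 CPM in CD5hi and 7.39 ± 1.25 CPM in CD5lo cells (edgeR adjusted p = 2.64e-13). In Treg, 18 of the 29 were higher and 1 lower than in fresh CD5hi cells, and 19 higher and 1 lower than in fresh CD5lo cells. Ebi3 is among the higher genes in both counts. Of all tested genes, 27.5% were higher and 26.6% lower than in fresh CD5hi cells, and 29.2% higher and 29.4% lower than in fresh CD5lo cells. Il1rl1, the interleukin 33 receptor, averaged 49.8 ± 8.00 CPM in Treg, against 0.134 ± 0.0853 CPM in fresh CD5hi and 0.129 ± 0.0740 CPM in fresh CD5lo cells.

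Among the 11 JAK kinases and STAT factors, 3 rose and 6 fell on resting in each CD5 group, with median log2 fold changes of -0.27 in CD5hi and -0.31 in CD5lo cells. Of all tested genes, 26.2% rose and 26.2% fell in CD5hi cells, and 26.9% rose and 27.3% fell in CD5lo cells. Jak3, the kinase bound to the common gamma chain, had 73.3 ± 7.83 CPM in rested against 289 ± 13.1 CPM in fresh CD5hi cells, and 63.4 ± 1.89 CPM in rested against 210 ± 4.64 CPM in fresh CD5lo cells (edgeR adjusted p = 1.55e-16 and 9.27e-16). Stat4, a factor of interleukin 12 signalling, rose by 1.04 ± 0.070 and 1.17 ± 0.070 (edgeR adjusted p = 8.56e-11 and 1.17e-11). In Treg, 7 of the 11 were higher and 1 was lower than in each fresh group, where 27.5% and 29.2% of all genes were higher. Stat5a was the one with the largest rise there, at 0.67 ± 0.090 against fresh CD5hi and 0.79 ± 0.090 against fresh CD5lo cells (edgeR adjusted p = 1.86e-06 and 1.52e-07).

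The 11 listed targets of interleukin 7 and STAT5 mostly rose on resting, 8 up and 2 down in CD5hi cells and 8 up and 1 down in CD5lo cells. Their median log2 fold changes were 1.41 and 1.5, beside 0.00 and -0.01 over all genes, of which 26.2% and 26.9% rose. Bcl2, a survival factor, rose by 2.40 ± 0.099 in CD5hi and 2.90 ± 0.10 in CD5lo cells (edgeR adjusted p = 2.27e-14 and 1.44e-15). Socs2, a feedback inhibitor, averaged 17.4 ± 2.49 CPM in rested against 0.153 ± 0.113 CPM in fresh CD5hi cells (edgeR adjusted p = 1.85e-16). In Treg the same list had 8 genes higher and 1 lower than in fresh CD5hi cells. Against fresh CD5lo cells it had 9 higher and 1 lower. Of all genes, 27.5% were higher and 26.6% lower against fresh CD5hi cells, and 29.2% higher and 29.4% lower against fresh CD5lo cells. The medians of the list were 0.40 and 0.48, beside -0.02 and -0.03 over all genes. Against each rested group 5 were higher and 5 lower in Treg. Of all genes, 33.5% were higher and 32.8% lower than in rested CD5hi cells, and 34.1% higher and 33.7% lower than in rested CD5lo cells. Cish, another feedback inhibitor, averaged 211 ± 20.9 CPM in Treg, against 14.9 ± 2.64 CPM in fresh CD5hi and 11.5 ± 2.51 CPM in fresh CD5lo cells. Several genes of this list are also known to be induced by interleukin 2.

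Of the 13 regulators of Il7r transcription and targets of Foxo1, 4 rose and 4 fell on resting in each CD5 group, a share near the 52.4% and 54.3% of all genes that passed. Foxo1, an activator of Il7r, had 211 ± 9.74 CPM in rested against 462 ± 36.1 CPM in fresh CD5hi cells and 235 ± 19.1 CPM in rested against 537 ± 47.0 CPM in fresh CD5lo cells (edgeR adjusted p = 5.03e-11 and 2.17e-11). Its known target Klf2 rose by 0.96 ± 0.075 in CD5hi and 1.25 ± 0.075 in CD5lo cells (edgeR adjusted p = 7.3e-10 and 1.19e-11). Gfi1, a repressor of Il7r, averaged 53.6 ± 5.55 CPM in Treg, against 15.5 ± 1.70 CPM in fresh CD5hi and 8.93 ± 1.09 CPM in fresh CD5lo cells (edgeR adjusted p = 2.2e-12 and 5.83e-15). Across this list 2 genes were higher and 8 lower in Treg than in fresh CD5hi cells, and 2 higher and 7 lower than in fresh CD5lo cells, where 26.6% and 29.4% of all genes were lower.

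The 14 listed targets of interferon gamma had 3 genes higher and 7 lower on resting in CD5hi cells, and 2 higher and 7 lower in CD5lo cells, where Ifngr1 itself rose. Median log2 fold changes were -0.36 and -0.40, and 26.2% and 27.3% of all genes fell. In fresh CD5hi cells 10 of the 14 were lower than in fresh CD5lo cells and none was higher, with a median of -0.33, where 4.59% of all genes were lower. Irgm1, a GTPase of this list, fell by 1.46 ± 0.077 on resting in CD5hi and by 1.64 ± 0.077 in CD5lo cells (edgeR adjusted p = 1.43e-12 and 2.06e-13). Of the 9 listed targets of STAT3, 2 rose and 4 fell on resting in CD5hi cells, and 1 rose and 5 fell in CD5lo cells, where 26.2% and 27.3% of all genes fell. Socs3, an inhibitor that binds gp130, averaged 129 ± 21.9 CPM in fresh CD5hi against 219 ± 22.0 CPM in fresh CD5lo cells (edgeR adjusted p = 1.31e-06), the opposite direction to Il6st. Among the 9 targets of STAT3, 1 was higher and 1 lower in fresh CD5hi cells, with a median of 0.36. Of all genes, 6.86% were higher and 4.59% lower there. Of the 16 feedback inhibitors, 10 rose and 4 fell on resting in CD5hi cells, and 10 rose and 3 fell in CD5lo cells. Their medians were 0.28 and 0.25, beside 0.00 and -0.01 over all genes, of which 26.2% and 26.9% rose.

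Genes whose level followed Il7r most closely were sought among 7997 genes with a mean of at least 10 CPM. Over the 20 libraries the highest Pearson correlations of log2 CPM were those of Maml2 (0.964), Snn (0.963), Rapgef6 (0.962), Gak (0.959) and Atp1b1 (0.957). The lowest were those of Whrn (-0.960), Ermp1 (-0.958) and Lmnb1 (-0.957). The libraries share their groups, so these values mainly order genes by how far Treg and naive cells differ. Within the 16 naive libraries the correlation was 0.85 for Maml2 and -0.89 for Lmnb1. Atp1b1 averaged 43.0 ± 1.5 CPM in Treg, 233 ± 19.7 in rested CD5hi, 254 ± 22.4 in rested CD5lo, 172 ± 8.26 in fresh CD5hi and 164 ± 5.19 in fresh CD5lo cells (SD, n = 4 each). Among the 10 receptors, Ifngr2 (0.91) and Il6ra (0.90) were most like Il7r.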

How the data were processed

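The authors deposited 1 table of raw read counts per gene for the 20 libraries. Per the submitters' processing notes, the tools were featureCounts (1.4.5, from Subread), TopHat2 (2.0.11) and edgeR, with build mm9, listed in no order. For strand handling and gene models, the choice is not given in the sources used here. Per the labels, libraries were made with a poly(A) kit. Groups were taken from sample titles, because the labels' cell type field reads the same for all groups.

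From the deposited counts, edgeR 4.0.16 (limma 3.58.1, R 4.3.3) fitted 1 factor with 5 groups to all libraries, with TMM scaling, its filter on low counts and the quasi-likelihood test (15 residual degrees of freedom). Benjamini-Hochberg adjustment ran over all 13309 tested genes, with a threshold of 0.05. The 9 comparisons were 8 pairs of groups and the change of the CD5hi to CD5lo difference on resting. P-values measure the spread between these libraries. Alternatives were other scalings and filters, DESeq2 1.42.0, a replicate block, libraries split by Y-linked or Xist reads, and each library left out.

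The 10 receptor genes and the gene lists were chosen with earlier results of these data known. All 10 are named. Of each list, up to 4 called genes with the largest log2 fold change per comparison could be named, and likeness to Il7r used the 5 highest and 3 lowest correlations. Il10rb, Il18rap and Il2rg were named as partner chains after values were seen. On simulated data with 200 changed genes among 13064 to 13090, the test recovered 55.2% to 79.1% of 1.5-fold changes over the comparisons. Of 2-fold changes it recovered 85.1% to 94.0%, and 2.22% to 8.99% of its calls were false. The changed genes there were not low in count, took random directions, and the simulated libraries were not paired. In the data 52.4% to 67.9% of genes passed on resting and in Treg, so these rates may not hold for those comparisons.

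The labels do not say whether replicate numbers pair libraries. Same-numbered libraries deviated together between fresh CD5hi and CD5lo (correlations 0.286 to 0.501) and between rested CD5hi and CD5lo (0.316 to 0.739). The numbers were therefore taken to pair them. Between Treg and rested libraries these correlations were 0.203 to 0.592 for CD5hi and 0.0196 to 0.652 for CD5lo. Some listed genes are not reported here by name.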

Additional observations from a re-analysis of the deposited data

Results flagged for a closer look

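In 6 of the 50 sets of 4 libraries (10 genes in 5 groups), 1 library lay apart from the other 3 by Dixon's criterion at its 95% level, which chance meets in about 1 in 20 groups. Il4ra had 1110.0 CPM in rested CD5hi replicate 3. Il6st had 288.0 CPM and Il21r 361.0 CPM in fresh CD5lo replicate 3. Il18r1 had 71.4 CPM in fresh CD5hi replicate 1 and 113.0 CPM in fresh CD5lo replicate 4. Il10ra had 147.0 CPM in rested CD5hi replicate 3.

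The difference between CD5hi and CD5lo cells in Il10ra changed on resting, by -0.69 on the log2 scale (edgeR adjusted p = 0.00418).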

How the results depend on the processing

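No receptor gene turned its direction while past the threshold under any alternative. Of 1090 values under other settings, 1038 kept their side of the threshold, 21 lost and 31 gained a call. Of 800 values with 1 library left out, these were 787, 11 and 2. Among those that kept their side, 22 and 14 values that passed in neither fit turned their sign.

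With the replicate block within each state, 2396 genes passed between fresh CD5hi and CD5lo cells (1524 without it), 7 of them receptor genes. Between rested cells 1961 passed (1092 without it), and for the change of this difference 247 (60 without it), 3 of them receptor genes. Blocking over all libraries gave 2 receptor genes for that change.

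Between rested CD5hi and CD5lo cells, 495 genes passed with the compared groups alone, 340 with Y-linked libraries, 614 with Xist libraries and 639 with rested replicates 3 and 4. Receptor genes passing there were 0 with Y-linked libraries, 1 with Xist libraries, 1 with rested replicates 1 and 2, and 0 with replicates 3 and 4. The rested-replicate splits were chosen after seeing the data. For the change on resting, DESeq2 called 130 genes and 2 receptor genes. Y-linked libraries gave 9 and 0, and rested replicates 3 and 4 gave 0 receptor genes.

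With 1 library left out, genes called for that change ranged from 36 to 90. Plain library totals moved the median of all genes to 0.19 in Treg against rested CD5lo and to 0.14 against rested CD5hi cells. They gave 6215 genes higher and 2738 lower in Treg than in rested CD5lo cells, against 4543 and 4489 with TMM. Against rested CD5hi cells they gave 5678 and 2948, against 4455 and 4362. Against fresh CD5hi cells they gave 4487 and 2477, against 3663 and 3545, and against fresh CD5lo cells 4790 and 2709, against 3881 and 3910. Rested CD5hi over rested CD5lo gave 825 and 311, against 631 and 461, and rested over fresh CD5lo 2715 and 4613, against 3582 and 3639. Every receptor gene had at least 792 counts in each library, and each group had 4 libraries.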
